A study of Mus musculus with 10 samples.

Results

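The genes described here are the mouse genes named Zfp with a number, most of which encode zinc finger proteins, as far as they carry a peak of N6-methyladenosine (m6A) in cortex and hippocampus with or without Mettl14. They were taken by name from 2 deposited peak lists, and 221 of the 8516 genes in either list qualified. A RefSeq table of the mouse build GRCm38.p6 holds 416 genes so named, 397 of them protein-coding, and all 221 were found in it, 218 as protein-coding genes. The study profiled cortex and hippocampus at postnatal day 5 from mice with a Nestin-Cre driven Mettl14 knockout (KO, 2 m6A IP and 2 input libraries) and from WT mice (3 IP and 3 input libraries). An antibody against m6A enriches RNA fragments in the IP libraries, and regions enriched over input are called as peaks. Nestin-Cre recombines in the neural progenitor lineage, so vessels, microglia and other cells of different origin keep Mettl14. The labels do not say whether the WT animals carried Cre or floxed alleles, and they name a culture medium beside the tissue without saying which of these gave the RNA.

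Most Zfp genes encode proteins with C2H2 zinc fingers, short modules that each hold a zinc ion and contact a few bases of DNA. Many also carry a KRAB domain, which recruits the corepressor TRIM28 and the histone methyltransferase SETDB1 to silence retroelements and imprinted loci, and KRAB zinc finger genes often stand in clusters of close copies. Their fingers are usually encoded together in a long last exon, and m6A is known to be dense in long exons and near stop codons. A smaller number of Zfp genes encode RNA-binding, ubiquitin ligase or neurodevelopmental proteins.

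Each genotype has 1 consensus list over its libraries, so no value below has a replicate error, no difference between KO and WT or between Zfp and other genes could be tested over samples, and intervals are Wilson 95% intervals that cover counting over peaks or genes alone. Depth and expression are unknown here, and a missing peak cannot be told apart from a weakly expressed gene or, between cell types, from fewer cells. Mettl14 itself had no KO peak and 1 WT peak of 180 exonic bases. Of 47 marker genes of brain cell types, 18 had a KO peak and 36 a WT peak, among them all 7 markers of cortical and hippocampal projection neurons in WT. Among markers of the neural lineage, 6 of 7 neuron, 4 of 7 projection neuron and 4 of 6 astrocyte markers had a KO peak. So did 0 of 6 interneuron and 1 of 7 oligodendrocyte lineage markers. In the same order, 6, 7, 5, 4 and 6 of these markers had a WT peak. Of the markers of cells outside the neural lineage, 2 of 5 endothelial and mural and 1 of 5 microglia markers had a KO peak, against 5 and 3 with a WT peak, and no blood marker had a peak in either list.

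Sequence could be read only where a peak reached into a RefSeq window from 250 bases before to 50 bases after a transcript start, which held for 1 Zfp peak of the KO list and 6 of the WT list. A stretch of 30 bases is shown for 3 of these genes because Zfp771 is the only member with such a peak in both lists, and because Zfp513 and Zfp668 are the only ones whose peak sequence in the window held GGAC, the core of the common m6A motif, marked in capitals. The sequences are from RefSeq, build GRCm38.p6, in the direction of transcription, at chr7:127244526-127244555 on the plus strand for Zfp771, chr5:31202106-31202135 on the minus strand for Zfp513 and chr7:127876807-127876836 on the minus strand for Zfp668. The start is that of the whole gene for Zfp668 and lies inside the gene for Zfp771 and Zfp513.
Zfp771: gcctccggagccgcggccttcgcagagcac
Zfp513: atcctaagagcaaGGACcgacggcagggcc
Zfp668: acGGACacgcttccggcgctaggttccggg
The Zfp771 peak began in both lists at the base that RefSeq gives as a transcript start inside the gene, and covered 179 exonic bases on 2 blocks in KO, against 298 bases on 3 blocks in WT. The 50 bases of it inside the window held GGAC on neither strand. Over all 32851 windows, GGAC stood in the 50 bases after the start in 18.9% on the transcribed strand and in 33.3% on either strand, and in 46.8% on the transcribed strand over the 180 bases that the Zfp513 peak covers, so its presence sets neither gene apart. The Zfp513 peak and the Zfp668 peak at its gene start were listed in WT alone.

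Zfp transcripts had few peaks in the KO list. There were 65 KO peaks in 53 Zfp genes and 520 WT peaks in 214 Zfp genes, or 12.5 KO peaks per 100 WT peaks, against 24.9 per 100 in all other genes. Summed exonic peak length was 9721 bases in KO and 114308 bases in WT, against 640266 and 3799232 bases in other genes. A WT peak is called retained where a same-strand KO peak shared 1 or more exonic bases with it, and lost otherwise. Of the Zfp WT peaks, 37 were retained, which is 7.12% (5.21 to 9.65), where 12.9% of all WT peaks and 13.1% (12.5 to 13.6) of those outside Zfp genes were. A retained peak was found in 34 Zfp genes, 15.9% of those with a WT peak (11.6 to 21.4), where the share over all genes is 20.6%. The gene share thus lies near the background, with overlapping intervals, while the peak share lies below it. The peak share moved with the settings, to 3.27% against 6.36% in other genes when an overlap of 50% of each peak was required, to 1.68% against 14.5% with the stronger 50% of each list alone, and up to 12.05% against 29.0% with the WT list shortened to its strongest peaks at the number of the KO list. The gene share fell to 3.05% with the stronger 50%, a setting under which the gene share of other genes was not computed.

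Zfp genes carried more WT peaks each than other genes did, with a mean of 2.43 against 1.93. At least 3 WT peaks were listed in 81 Zfp genes, 37.9% (31.6 to 44.5), against 23.3% (22.3 to 24.3) of other genes. Zfp462 led with 5 KO and 9 WT peaks. It encodes a neurodevelopmental protein that works with heterochromatin, and ZNF462, its human counterpart, is mutated in a developmental disorder. Zfp608 followed with 1 KO and 8 WT peaks, and its paralog Zfp609, which works with the cohesin loader NIPBL in cortical neurons, had 4 KO and 7 WT peaks. Zfp646 had no KO peak and 8 WT peaks, and Zfp628 and Zfp469 had none in KO and 7 in WT each. ZNF469, the human counterpart of the last, is mutated in a corneal disorder.

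**Figure D1:**
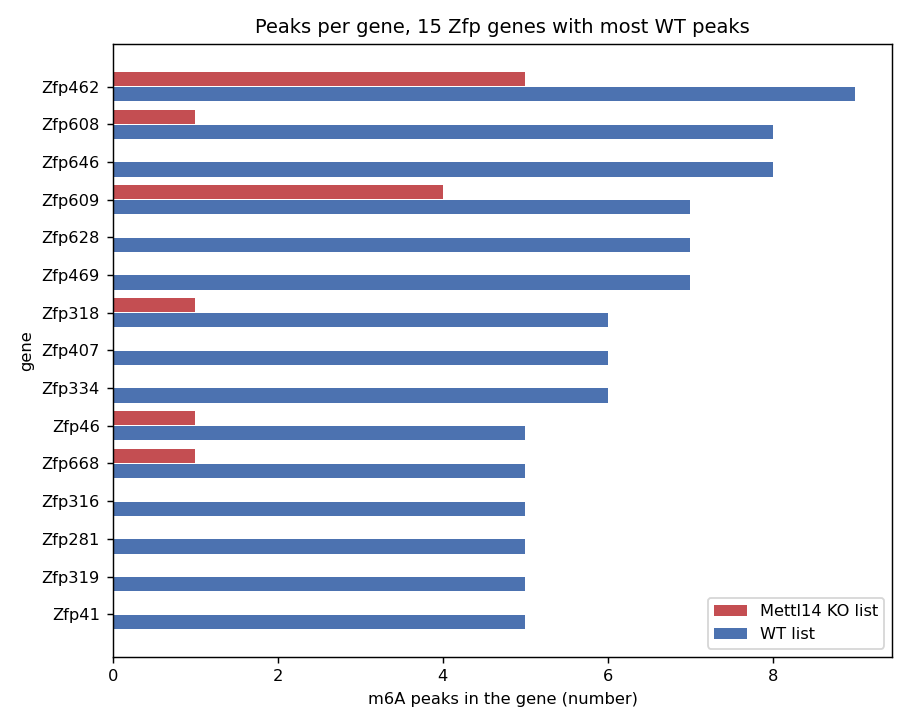
Number of m6A peaks in the KO list (red, upper bar) and in the WT list (blue, lower bar) for the 15 Zfp genes with most WT peaks. Zfp462 and Zfp609 had 5 and 4 KO peaks, 4 further genes had 1 and the other 9 had none.

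The share of genes with a retained peak was below that of other genes among those with most WT peaks. Among genes with 1 WT peak, 3 of 75 Zfp genes and 405 of 3813 other genes had it retained, or 4% (1.37 to 11.1) and 10.6% (9.68 to 11.6). With 2 WT peaks the shares were 22.4% (13.6 to 34.7) and 22.7% (20.9 to 24.7), close to each other. With 3 WT peaks they were 22.9% (12.1 to 39.0) and 34.2% (31.2 to 37.3), with overlapping intervals. With 4 or more they were 21.7% (12.3 to 35.6) in 46 Zfp genes and 47.4% (44.0 to 50.8) in 832 other genes. No KO peak was listed in 34 of those 46 Zfp genes, 73.9% (59.7 to 84.4), against 46.4% (43.0 to 49.8) of the other genes with as many WT peaks. Ordered by number of WT peaks and then by length, the 34 Zfp genes were led by Zfp646, Zfp628, Zfp469, Zfp407, Zfp334, Zfp316, Zfp281 and Zfp319, with 5 to 8 WT peaks each over 934 to 1797 exonic bases. Zfp281, a regulator of pluripotency, had 5 WT peaks over 1232 bases.

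Over the whole set, 168 Zfp genes had a WT peak and no KO peak, 78.5% of those with a WT peak, where 73.0% of all such genes did. Peaks in both lists were found in 46 Zfp genes, and their median summed exonic length was 150 bases in KO and 613 bases in WT. The KO length was shorter in 41 of the 46, equal in 3 (Zfp575, Zfp780b and Zfp809) and longer in 2, Zfp111 with 241 against 61 bases and Zfp169 with 449 against 330 bases. Lengths per gene were not compared in other genes, whose summed peak length was also lower in KO. Of the 53 Zfp genes with a KO peak, 46 had exactly 1. The share with exactly 1 was not counted in other genes, which had 3608 KO peaks in 2826 genes, against 65 in 53 here.

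At most retained sites the KO peak was a fragment of the WT peak. In 29 of 37 pairs the KO peak lay wholly inside the WT peak, and in 30 it was narrower. The median width was 121 bases for the KO peak and 210 bases for the WT peak of a pair, and the KO peak covered a median of 50% of the WT peak. In other genes KO peaks over a WT peak were also narrower than retained WT peaks, with medians of 180 and 359 bases. Pairs lying wholly inside were not counted in other genes. The widest Zfp peak, that of Zfp651 on chromosome 9, measured 210 bases in KO (121763535 to 121763744) and 1050 bases on 2 blocks in WT (121763085 to 121765495). Zfp46 had 61 bases within 539, and Zfp777 had 60 within 685. Zfp575 on chromosome 7 (24585685 to 24585774) was the only pair with the same borders in both lists, 90 bases wide. In 5 pairs the KO peak was the wider one, among them Zfp612 with 330 against 180 bases, Zfp811 with 240 against 121 bases and Zfp362 with 209 against 179 bases. A few pairs rested on very little overlap, since the KO and WT peaks of Zfp91 shared 4 bases and a pair in Zfp462 shared 1 base.

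**Figure D2:**
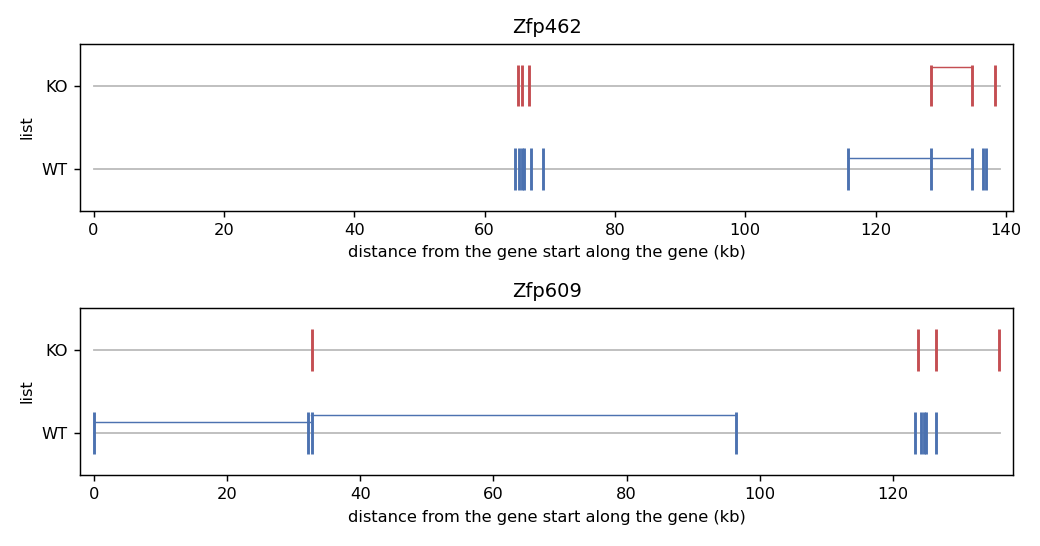
Positions of KO peaks (red, upper line) and WT peaks (blue, lower line) along Zfp462 and Zfp609, in kb from the gene start, with upright marks for exonic blocks and thin lines joining blocks of 1 peak. Both genes have a KO peak beside the gene end where no WT peak is listed.

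Zfp462 and Zfp609 held KO peaks both over and away from their WT peaks. In Zfp462, on chromosome 4, KO peaks covered 845 exonic bases and WT peaks 1748. Of its 9 WT peaks 3 were retained, and its widest WT peak (55080714 to 55081254, 541 bases) was lost. The strongest KO peak of the gene, 361 bases from 55082603 to 55082963, lay 1048 bases beyond the nearest WT peak, with its midpoint 780 bases from the gene end. In Zfp609, on chromosome 9 and transcribed from the minus strand, KO peaks covered 452 exonic bases and WT peaks 1861. The strongest of its WT peaks (65731187 to 65795026, 420 exonic bases on 2 blocks) was overlapped by a KO peak of 121 bases, whereas its widest, of 509 bases, was lost. Its strongest KO peak, 180 bases wide, had its midpoint 95 bases from the gene end and lay 9261 bases from the nearest WT peak.

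KO peaks away from WT peaks were found in further genes. Of the 65 Zfp KO peaks, 37 lay over a WT peak, 56.9% (44.8 to 68.2), where 57.1% of all KO peaks did. The shares differed more under other settings, with 15.4% against 32.8% in other genes for the WT list shortened to the number of KO peaks and 18.2% against 62.4% for the stronger 50% of each list. Another 19 lay elsewhere in 17 genes that had a WT peak, 29.2% (19.6 to 41.2) against 20.01% (18.7 to 21.3) in other genes. Their gap to the nearest WT peak of the gene ranged from 178 to 118045 bases, with a median of 1048, and 14 of the 19 lay on its 3′ side, 73.7% (51.2 to 88.2), where 57.1% (53.4 to 60.6) did in other genes. The largest gap was that of Zfp423, a regulator of cerebellar and midline development, whose KO peak of 151 bases on chromosome 8 (87662019 to 87662169) had its midpoint 284 bases from the gene end, with 2 WT peaks far upstream. The KO peak of Zfp169 on chromosome 13 (48487959 to 48488407) was the widest of the set in KO at 449 bases and lay 986 bases beyond a WT peak. In 12 of the 46 genes with peaks in both lists none was retained, 26.1% (15.6 to 40.3), near 23.7% (21.9 to 25.6) in other genes. They include Zfp318, Zfp668 and the collided-ribosome ubiquitin ligase gene Zfp598 (1 KO and 3 WT peaks).

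The remaining 9 KO peaks lay in 7 Zfp genes without a WT peak, 13.2% (6.55 to 24.8) of the Zfp genes with a KO peak, where 27.8% of all genes with a KO peak lacked a WT peak. These 7 were Zfp442 and Zfp937 with 2 KO peaks each, over 422 and 331 bases, and Zfp113, Zfp26, Zfp345, Zfp72 and Zfp58 with 1 each, of 150 to 241 bases. Zfp937, Zfp442 and Zfp345 are neighbours on chromosome 2 in a cluster of 4 Zfp genes (150114407 to 150485063) that held 5 KO peaks and no WT peak. With the WT list shortened to the 3673 strongest peaks, the size of the KO list, 32 of the 53 Zfp genes had KO peaks alone, 60.4% (46.9 to 72.4), close to 56.9% (55.1 to 58.8) in other genes.

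Peaks in Zfp genes were narrower than elsewhere in WT and lay mostly on 1 exonic block. The median exonic width was 150 bases in KO (quartiles 91 and 181) and 180 bases in WT (120 and 271), against 151 (120 and 210) and 209 (121 and 329) in other genes. A single block held 84.6% (73.9 to 91.4) of Zfp KO peaks and 90.4% (87.5 to 92.6) of Zfp WT peaks, against 66.4% (64.9 to 67.9) and 76.0% (75.3 to 76.7) in other genes. In all other genes the WT peaks that were retained had a median width of 359 bases and the lost ones 181. In Zfp genes these medians were 210 and 180 bases. KO peaks over a WT peak were narrower than those elsewhere in Zfp genes, at 121 and 180 bases, whereas in other genes they measured 180 and 150 bases.

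**Figure D3:**
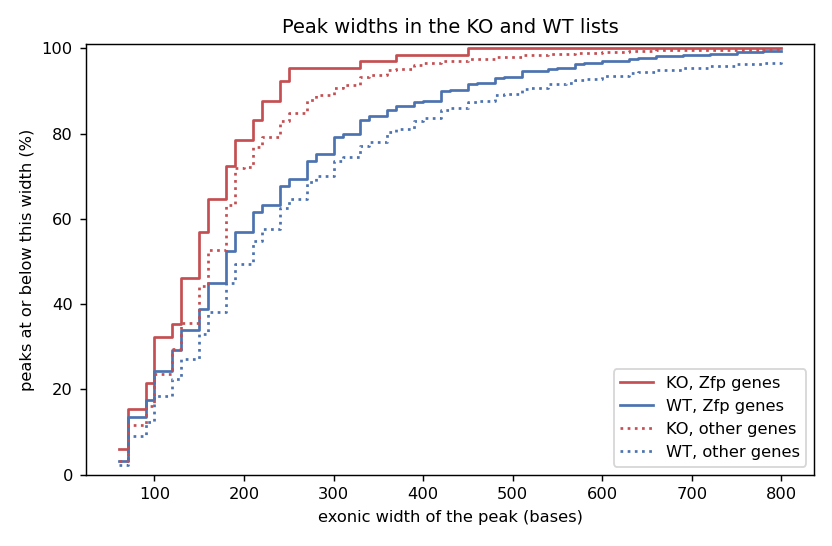
Cumulative share of peaks (%) at or below an exonic width in bases, for KO (red) and WT (blue) peaks in Zfp genes (solid) and in all other genes (dotted). The solid curves run above the dotted ones of the same list over most widths, with medians of 150 and 180 bases in Zfp genes and of 151 and 209 bases elsewhere.

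WT peaks were also split by strength, using the p-value or q-value that the authors listed to rank peaks within the list, and separately by width. The strongest and the widest class are open-ended, so neither measure is equal within them, and the widest reaches 1050 bases in Zfp genes and 4019 bases in other genes. Zfp genes held 62 of the strongest 20% of WT peaks, which is 11.9% of the Zfp peaks, against 20.5% of the peaks of other genes. In this strongest class 14.5% (7.83 to 25.3) of the Zfp peaks were retained, against 31.2% (29.5 to 32.9) of the others. In the next class the shares were 6.84% (3.51 to 12.9) and 14.2% (12.99 to 15.5). In the remaining 3 classes the intervals overlapped, and in the weakest class the Zfp share was the higher, at 5.31% (2.46 to 11.1) against 3.45% (2.84 to 4.18). By width the pattern was similar. In the 3 classes of at most 240 bases the Zfp shares were 3.29%, 5.62% and 9.91%, close to 3.08%, 5.13% and 9.72% in other genes. Of peaks of 241 to 360 bases, 6.45% (2.99 to 13.4) of Zfp peaks were retained, against 17.3% (15.9 to 18.8) of others. Of peaks of 361 bases or more 13.3% (7.41 to 22.8) were retained, against 31.7% (30.03 to 33.5) of others. Peaks on 1 block were retained in 5.32% (3.63 to 7.73) of Zfp and 8.08% (7.58 to 8.60) of other cases, and those on several blocks in 24.0% (14.3 to 37.4) and 29.0% (27.5 to 30.5).

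**Figure D4:**
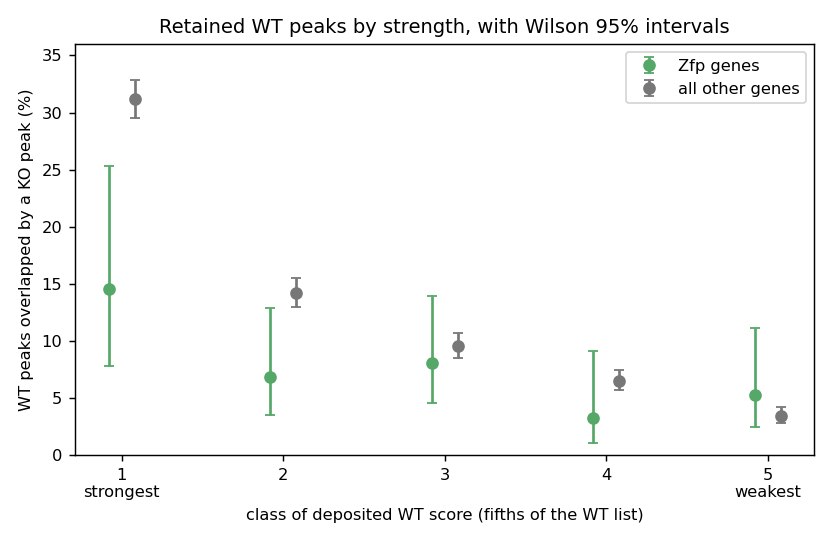
Share of WT peaks overlapped by a KO peak (%) in 5 classes of the deposited WT score, strongest at left, for Zfp genes (green) and all other genes (grey), with Wilson 95% intervals. The Zfp share is 14.5% in the strongest class, where other genes reach 31.2%, and 5.31% against 3.45% in the weakest.

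The strongest Zfp peaks did not coincide between the lists. In WT the lowest scores, listed as 0, belonged to peaks of Zfp445 (2 peaks), Zfp57, Zfp651 and Zfp821, followed by Zfp146 at 1e-309. KO peaks of 61 to 210 bases lay within 4 of these WT peaks, while the other Zfp445 peak and the Zfp146 peak were lost. In KO the strongest was Zfp362 at 1e-58, on chromosome 4 from 128787045 to 128789896, followed by Zfp169 at 4e-53, Zfp811 at 1.3e-31, Zfp111 at 2e-31, Zfp442 at 3.2e-30 and Zfp937 at 1.6e-28. Of these 6 KO peaks, those of Zfp362 and Zfp811 lay over a WT peak.

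Near the gene end, within 1000 bases, lay 16.9% of Zfp KO peaks (9.72 to 27.8) and 11.2% of Zfp WT peaks (8.73 to 14.1), against 16.7% (15.6 to 18.0) and 16.7% (16.1 to 17.3) in other genes. Zfp WT peaks were not far from the end in absolute terms, since 67.1% (63.0 to 71.0) lay within 5000 bases of it, against 56.8% (56.0 to 57.6) of others, in genes with a median span of 17527.5 bases against 34767. Of the lost and retained Zfp WT peaks, 11.2% and 10.8% lay within 1000 bases of the end. In other genes these were 17.8% and 8.88%. Within 200 bases of the gene start lay 1.54% (0.272 to 8.21) of Zfp KO and 1.35% (0.654 to 2.75) of Zfp WT peaks, against 4.28% (3.66 to 4.99) and 4.56% (4.23 to 4.91) in other genes.

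By role, neurodevelopmental Zfp genes, looked up under their listed names, had a KO peak in 4 and a WT peak in 15 of 17 members. A retained peak was found in 3: Zfp462, Zfp335 and Zfp148. As a share of genes with a WT peak this lies near the 20.6% over all genes, which is the background for each list that follows. It is not matched for the number of WT peaks per gene, on which the share depends. The neurodevelopmental list had 53 WT peaks in its 15 genes, and other genes with 3 WT peaks had a share of 34.2%. Its member Zfp238 is an older name of Zbtb18 and had no peak under that older name. Under the name Zbtb18 the gene had 1 KO peak and 2 WT peaks, 1 of them retained, and these are counted with the BTB genes below. The lists by role hold few genes, and their gene shares were given no interval. Zfp335, a factor required for neural progenitors, had 1 KO and 2 WT peaks, of which 1 was retained. Zfp148 had 1 KO peak of 60 bases and 5 WT peaks over 813 bases. Zfp407 (6 WT peaks), Zfp142 (5), Zfp507 (4), Zfp536, Zfp292 and Zfp804a (3 each), Zfp521 and Zfp703 (2 each) had no KO peak. Zfp536 restrains neuronal differentiation and Zfp521 promotes the neural fate. ZNF804A, the human counterpart of Zfp804a, is associated with psychiatric disease.

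The list of KRAB genes of silencing and imprinting had a KO peak in 4 and a WT peak in 8 of 14 members, and 3 had a retained peak. Zfp57 and Zfp445, which protect methylation at imprinted loci, had 1 KO peak each, of 61 and 151 bases, against 2 and 3 WT peaks over 569 and 631 bases. Zfp809, a silencer of endogenous retroviruses, had a peak of 90 bases in each list, shifted so that 60 bases were shared. Zfp30 had none in KO and 4 in WT. The cofactor list held 18 genes, of which 5 had a KO peak, 11 a WT peak and 5 a retained one. The NuRD remodeler genes Chd4 and Chd3 retained 4 of 5 and 3 of 5 WT peaks, the methyltransferase genes Dnmt1 and Dnmt3a 1 of 2 and 2 of 2, and Mphosph8 1 of 2. Setdb1 had no KO peak and 2 WT peaks, and Trim28 had none in either list.

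Chromatin partners had a KO peak in 3 of 13 members and a WT peak in 10, and the 3 with a KO peak, Zfp462 among them, also had a retained one. Zfp592 and Zfp516 retained 1 of 2 and 1 of 5 WT peaks, while Zfp687 and Zfp532, which join Zfp592 in a complex with ZMYND8, had no KO peak and 3 WT peaks each. Among RNA-binding members, 2 of 12 had a KO peak and 6 a WT peak. Zfp622, a factor of large ribosomal subunit maturation, had a KO peak of 210 bases inside a WT peak of 389 bases, Zfp106 kept 61 of 151 bases, and Zfp638 had no KO peak and 4 WT peaks. Zfp36l1 and Zfp36l2, which direct decay of mRNAs with AU-rich elements through CCCH fingers, had no KO peak and 1 WT peak each, of 568 and 241 bases. Zfp36 had no peak in either list. The ubiquitin and SUMO ligase genes Zfp91, Zfp598 and Zfp451 had 1, 1 and no KO peaks, against 3, 3 and 4 WT peaks. The Zfp91 peaks carry a second gene name, Gm44505.

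Zinc finger genes under other names were counted likewise. BTB zinc finger genes had a KO peak in 10, a WT peak in 35 and a retained peak in 5 of 40. Of their 79 WT peaks 5 were retained, 6.33% (2.73 to 13.97), an interval that holds the 12.9% of all WT peaks. Only 39 of the 40 names were found in RefSeq. Zbtb47 had no peak under that name, and Zfp651, another name of that gene, is counted among the Zfp genes. KRAB and SCAN genes named Zkscan, Zscan and the like had a KO peak in 1, a WT peak in 18 and a retained peak in none of 24, with 0 of 32 WT peaks retained (Wilson interval 0 to 10.7%). Their only KO peak was in Zkscan2.

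**Figure D5:**
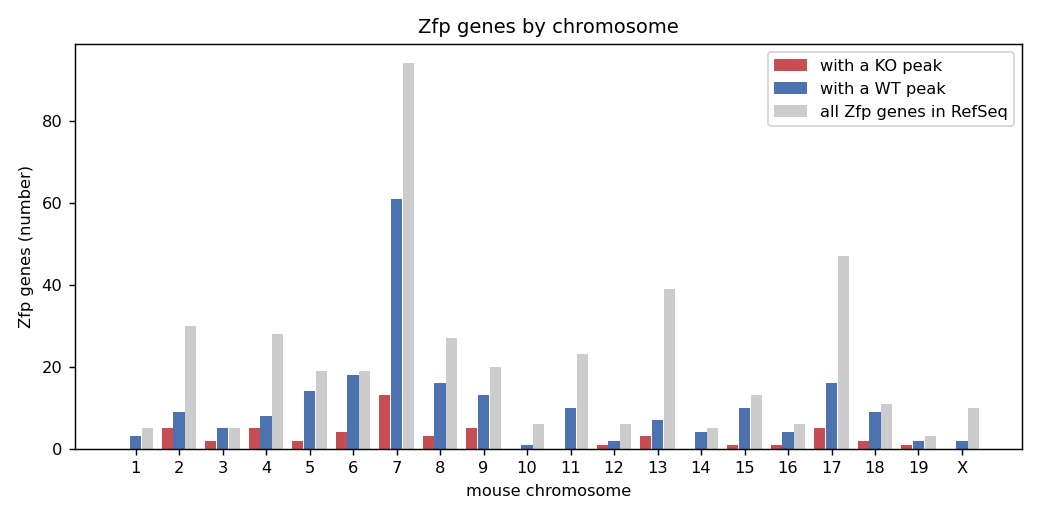
Number of Zfp genes per mouse chromosome with a KO peak (red), with a WT peak (blue) and in RefSeq (grey). Chromosome 7 has 13, 61 and 94, and chromosome 13 has 3, 7 and 39.

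Zfp genes are unevenly spread over the genome, and so were their peaks. Chromosome 7 held 13 of 65 Zfp KO peaks and 139 of 520 Zfp WT peaks, and its share of the Zfp WT peaks was 26.7%, against 7.27% of the WT peaks of other genes. RefSeq Zfp genes no more than 250 kb from the next were joined, which gave 22 clusters of at least 4 genes with 184 genes in all. Clustered genes had a KO peak in 21 and a WT peak in 86, and 10 of 178 WT peaks were retained, 5.62% (3.08 to 10.03). Genes outside clusters had a KO peak in 32 and a WT peak in 128 of 232, and 27 of 342 WT peaks were retained, 7.89% (5.48 to 11.2). The intervals overlap. Of the 7 genes with KO peaks alone, 5 were clustered, where 21 of the 53 Zfp genes with a KO peak were. The cluster of 4 genes on chromosome 2 held 3 of these 5.

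The clusters differed widely from each other. On chromosome 7, from 29768552 to 30169775, all 15 Zfp genes had a WT peak, 34 in sum, and none had a KO peak. They include Zfp30, Zfp568, a repressor of a placental Igf2 transcript, and Zfp146. For comparison, 78.5% of all Zfp genes with a WT peak and 73.0% of all genes with a WT peak had no KO peak. Also on chromosome 7, from 127233061 to 127885996, 10 genes held 5 KO and 32 WT peaks, with retained peaks in Zfp553, Zfp768 and Zfp771. The cluster of 18 genes on chromosome 17 (21383707 to 22456689) had no peak in either list, that of 12 genes on chromosome 4 (146449030 to 147849126) had no KO peak and 1 WT peak, and that of 24 genes on chromosome 13 (67038594 to 67827000) had 1 KO peak, in Zfp58, and 3 WT peaks. Clustered genes are often close copies, and the labels do not say how reads matching several of them were counted, so single calls within clusters are uncertain. The part of this in the low counts was not tested.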

How the data were processed

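RNA labelled as cortex and hippocampus was profiled by m6A-seq, and per the labels IP RNA was precipitated with an anti-m6A antibody before stranded library building. STAR and GRCm38 are named, without versions, in the submitters' processing notes. No label or header names the peak caller, its thresholds or how libraries were combined. The authors deposited 1 list per genotype, whose score was read as a p-value or q-value from its range (0 to 0.00015), together with the number of exonic blocks of each peak. With Python 3.11.15 and pandas 2.3.3, entries overlapping on exonic blocks and strand were merged (3733 KO entries to 3673 peaks, 15091 WT entries to 15009), which joined no Zfp entries with each other. Overlap needed 1 shared base, and code for merging and overlap was tested on simulated data. No test was run, since each genotype has a single list without values per library, and p-values served only to rank peaks within a list. Gene spans, starts and start sequences came from RefSeq. Coordinates count from 1.

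Members, gene lists and tests were chosen with earlier results of these data known. Named genes were the 15 richest in WT peaks, the 15 richest in KO peaks that had a retained peak, the 10 longest in KO without a WT peak (7 existed), the 8 richest in WT peaks that lacked KO peaks, those of the 6 widest and 6 strongest peaks of each list, those with equal borders, and list members with a peak. Zfp513, Zfp777 and Zfp780b fall outside this rule and were chosen after their values were seen. A planned choice by number of fingers was not made, since it needs protein sequences not used here.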

Additional observations from a re-analysis of the deposited data

How the results depend on the processing

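No paired analysis was possible because each deposited list pools its libraries, and no replicate could be left out. Of 59 recomputed Zfp values, 38 stayed within the interval of the reported one (for gene counts, within 1.5 times). Ignoring strand, leaving entries unmerged, dropping peaks with several names or dropping recurring KO scores moved none of them beyond it. A recurring score is one that 20 or more KO peaks share exactly. Without these peaks, 56.4% of Zfp KO peaks lay over a WT peak. In other genes this share rose from 57.1% to 65.3%, so the 2 shares were no longer close. The retained share of Zfp WT peaks, 7.12%, was 3.65% with 50% of the WT peak covered, 3.27% with 50% of both peaks shared, 12.05% with the WT list shortened to its strongest peaks at the KO number, and 1.68% (4 of 238) with the stronger 50% of each list, where other genes had 6.94%, 6.36%, 29.0% and 14.5%. The share of Zfp KO peaks over a WT peak, 56.9%, was 26.2% with 50% of both shared, 15.4% with the shortened WT list and 18.2% (4 of 22) with the stronger 50%, where other genes had 25.6%, 32.8% and 62.4%. Zfp genes with a retained peak, 15.9%, were 8.41% and 7.48% under the 50% rules and 3.05% with the stronger 50%. The gene share of other genes was not computed under these settings. With the shortened WT list, 32 Zfp genes had KO peaks alone and 41 WT peaks alone. The WT median width came to 327 bases and the WT share on 1 block to 84.3%. KO peaks per 100 WT peaks came to 78.3 in Zfp genes. This setting makes the 2 lists equally long, and other genes then had 3608 KO and 3590 WT peaks. With the stronger 50% of each list, Zfp genes had 9.24 KO peaks per 100 WT peaks, where other genes had 1814 KO and 7266 WT peaks. The Zfp median widths were then 210.5 bases in KO and 268 bases in WT. Within 5000 bases of the gene end lay 61.5% of KO and 67.1% of WT peaks, and within 500 bases 4.42% of WT peaks.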
